A study of Mus musculus with 2 samples.

Results

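The 42 genes described here are interferon-stimulated effector genes, meaning genes known to be switched on by interferons that encode proteins acting against viruses and intracellular microbes, or regulators of that response. They were chosen by name and matched by their GENCODE M21 gene name in the larger gene table of each library. All 42 names matched, out of 55536 annotated genes. By role they fell into 11 type I-leaning genes (the Ifit, Oas and Mx families and Isg15), 11 type II-leaning genes (the Gbp family, Igtp, Irgm1 and Irgm2), 6 genes of RNA and DNA sensing and 14 other effectors and regulators. The RNA was the polyadenylated RNA of inflammation-experienced regulatory T cells, a CD4 lineage that restrains immunity and is marked by the transcription factor Foxp3. The cells came from an adult male mouse aged 6 months of strain Foxp3CreERT2 x Rosa26YFP, in which the Foxp3 locus drives CreERT2, a tamoxifen-dependent recombinase, and the Rosa26 locus holds a YFP reporter. The labels give bone marrow hematopoietic cells as their origin and name 1 biological replicate with 2 technical libraries, made from RNA or cDNA sheared to a size of 100 to 300 bp. No control cells were analysed here, so the values are levels in this 1 group, and whether a member was induced cannot be told from them. An SD over the technical libraries holds no variation between animals.

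Type I interferons (the alpha and beta interferons) and type II interferon (interferon gamma) bind different receptors and act through Janus kinases and STAT factors. Type I signalling forms a complex, with STAT2 and IRF9 among its parts, that binds interferon-stimulated response elements. Interferon gamma acts mainly at gamma-activated sites and through IRF1, which also binds response elements. Most members respond in some degree to both kinds of interferon, so "leaning" names only the family a gene was sorted by.

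Promoter letters were examined first, because the members were picked as genes that interferons regulate. RefSeq promoter windows on GRCm38.p6, from 250 bases before to 50 after a gene's start, matched 27 of the 42 members by symbol. Entries were missing for Mx1, Mx2, Oas2, Gbp4, Gbp6, Gbp8, Gbp9, Dhx58, Zbp1, Ifi27, Usp18, Rtp4, Parp9, Parp14 and Iigp1. The response element core was searched on both strands as GAAA, any 2 bases, GAAA, and overlapping matches were kept. It was found in 17 of 27 members (62.96%), against 3.99% of all 27025 symbols in the table. By role it was found in 7 of 7 type II-leaning members, 5 of 8 type I-leaning members, 3 of 4 sensing genes and 2 of 8 others. The type I-leaning members with the core were Isg15, Ifit1, Ifit3, Oas1a and Oas3. With the core required to be followed by CT, 10 of 27 members held it, against 0.3% of all symbols. The gamma-activated site core TTCNNNGAA was found in 10 of 27 members (37.04%) against 9.55% of symbols, in 4 of 7 type II-leaning and in 2 of 8 type I-leaning members. These matches are letters in a window and no measure of binding.

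The sites below show the response element core (capitals) in members of each family, each read from the strand given. Those of Ifit1, Gbp2 and Gbp7 lie on the strand opposite to the gene.
Isg15, chr4:156200875-156200896, minus strand: gaaaagGAAACCGAAAcagaaa
Ifit1, chr19:34640798-34640819, minus strand: cagtgaGAAACTGAAActgaga
Oas1a, chr5:120907530-120907551, minus strand: tctcggGAAATGGAAActgaaa
Gbp2, chr3:142620598-142620619, minus strand: gacagtGAAAGTGAAActaaaa
Gbp7, chr3:142530277-142530298, minus strand: agaactGAAACTGAAActgcac
Irgm1, chr11:48871429-48871450, minus strand: gaaataGAAACCGAAActgatt
Igtp, chr11:58199516-58199537, plus strand: ggaactGAAACTGAAAgctgtt
Irgm2, chr11:58214907-58214928, plus strand: ggaactGAAACTGAAAgctgtt

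The site of Igtp and that of Irgm2 were the same over all 22 bases printed. Across the 17 members there were 25 such sites, of which 20 began within 150 bases before the start and 3 after it. The gamma-activated site core (capitals) stood beside the response element in these neighbouring genes, where the 21 bases printed differed by 1 base between them.
Igtp, chr11:58199505-58199525, plus strand: agccatTTCTAGGAActgaaa
Irgm2, chr11:58214896-58214916, plus strand: agccatTTCCAGGAActgaaa

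Levels are given as TPM, a transcript's share of all transcripts on a fixed scale, already divided by its length, so that genes can be set beside each other. Detection here meant at least 1 TPM in each library. By this rule 41 of the 42 members were detected (97.6%), against 46.7% of the 22028 protein-coding genes and 24.3% of all annotated genes. Oas2 was the member not detected. The median level over all 42 members was 42.3 ± 0.721 TPM (SD of the library medians, n = 2 technical libraries), while the 10288 protein-coding genes detected had a median of 18.3 ± 0.194 TPM. At 100 TPM or more stood 10 members (23.81%) and 11.25% of detected protein-coding genes. Together the members took 0.2956% of all TPM in technical replicate 1 and 0.2919% in technical replicate 2.

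**Figure D1:**
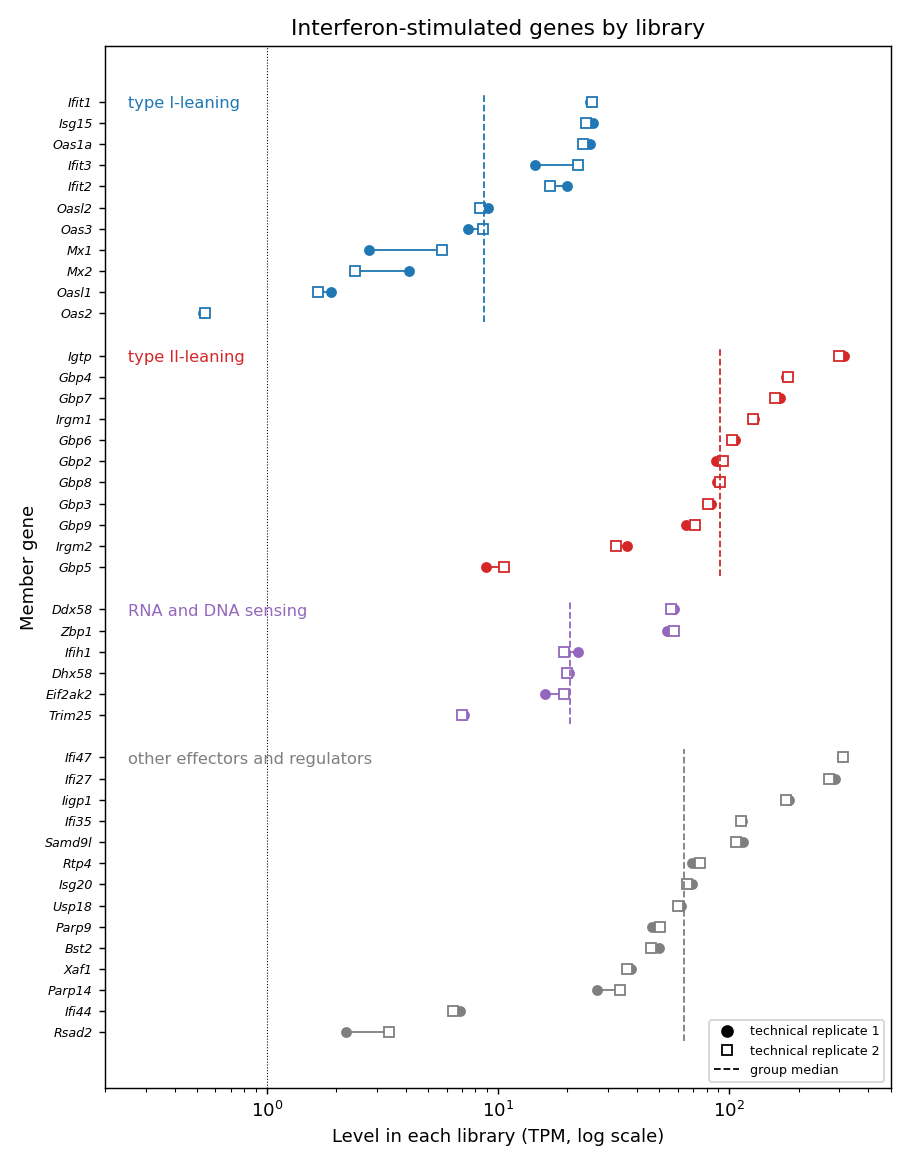
Level of each of the 42 members in TPM (log axis), with filled circles for technical replicate 1, open squares for technical replicate 2, dashed lines for the median of each role group and a dotted line at 1 TPM. All type II-leaning members except Gbp5 lie to the right of the highest type I-leaning member, and Oas2 is the member below 1 TPM.

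The type I-leaning genes were present at low to moderate levels, with a median of 8.71 ± 0.304 TPM (SD, n = 2 technical libraries) over the 11 members. Ifit1, which binds viral RNA lacking the host cap methylation, was at 25.2 TPM in technical replicate 1 and 25.6 in technical replicate 2. Isg15, a ubiquitin-like protein that is joined to other proteins, was at 25.8 and 24.0 TPM. Oas1a, one of the 2'-5' oligoadenylate synthetases that activate RNase L, was at 25.1 and 23.3 TPM. These 3 genes led the group within 3 TPM of each other, and Isg15 lay above Ifit1 in technical replicate 1 and below it in technical replicate 2. Ifit3, a partner protein of Ifit1, was at 14.5 and 22.2 TPM, and Ifit2 was at 19.9 and 16.8 TPM. Ifit3 lay below Ifit2 in technical replicate 1 and above it in technical replicate 2.

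A gap separated these 5 genes from the other type I-leaning members. Oasl2, an oligoadenylate synthetase-like gene, was at 9.05 and 8.37 TPM, and the synthetase Oas3 at 7.44 and 8.62 TPM. Mx1, a dynamin-like GTPase that blocks influenza virus, was at 2.78 and 5.73 TPM. Its relative Mx2, typed by GENCODE as a polymorphic pseudogene, was at 4.14 and 2.42 TPM. Which Mx gene was higher in TPM therefore changed between the libraries. By estimated counts Mx1 was above Mx2 in both, at 90.2 against 58.9 in technical replicate 1 and 133 against 59.5 in technical replicate 2. Oasl1 stood at 1.90 and 1.67 TPM, and Oas2 at 0.53 and 0.54 TPM with 21 and 18 estimated counts. Oas2 thus had reads in both libraries and lay under the detection threshold in both.

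The type II-leaning genes were higher, with a median of 91.2 ± 3.92 TPM (SD, n = 2 technical libraries) over the 11 members. Most of them encode GTPases that attack the vacuoles in which intracellular microbes live. Igtp, an immunity-related GTPase also known as Irgm3, led at 314 TPM in technical replicate 1 and 298 in technical replicate 2. Irgm1, a regulatory GTPase of the same family, was at 128 and 127 TPM, and Irgm2 at 36.1 and 32.6 TPM. The 3 lay far apart, each separated from the next by more than the gap between its own libraries.

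Among the guanylate-binding proteins Gbp4 was highest, at 176 and 179 TPM. Gbp7 followed at 166 and 158 TPM and Gbp6 at 106 and 103 TPM. Their order was the same in both libraries. Gbp2, which marks bacterial and parasite vacuoles for attack, was at 88.0 and 94.4 TPM. The levels of Gbp8 were 88.8 and 91.3 TPM, and those of Gbp3 83.9 and 81.4 TPM. Gbp2 and Gbp8 overlapped and their order changed between the libraries. Gbp9 was at 65.2 and 71.0 TPM. Gbp5, which in other cells promotes inflammasome assembly, was the lowest at 8.92 and 10.7 TPM. The family lies in 2 clusters, and members on chromosome 5 (Gbp4, Gbp6, Gbp8, Gbp9) had a median of 97.5 TPM while those on chromosome 3 (Gbp2, Gbp3, Gbp5, Gbp7) had a median of 86.9 TPM. The 2 sets of values overlapped. These medians cover the members alone. They leave out Gbp2b on chromosome 3 (mean 56.6 TPM) and Gbp10 and Gbp11 on chromosome 5 (means 35.5 and 2.22 TPM), so they do not rank the clusters.

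Set against each other, the type II-leaning median was 9.82 times the type I-leaning median in technical replicate 1 and 10.9 times in technical replicate 2. On the log2 scale the ratio of medians was 3.39 for the mean of the libraries. In summed TPM the groups stood at 1263 against 136 in technical replicate 1 and at 1247 against 139 in technical replicate 2. In each library 10 of the 11 type II-leaning members lay above every type I-leaning member. The exception was Gbp5, which was below 5 type I-leaning members in technical replicate 2 and below 6 in technical replicate 1. Of the 121 pairs of 1 gene from each group, the type II-leaning gene was higher in 115 and 116. No test was made of this difference, since genes are not replicates of a condition. The size of the ratio depends on which members are counted: with only detected members, that is without Oas2, the log2 ratio of medians was 2.75. The type I-leaning median was that of Oasl2, at the lower edge of the gap under Ifit2 (means of 8.71 and 18.35 TPM). Leaving out Oasl2 or any member under it therefore moves this median into the gap, however low that member is. Counting protein-coding transcripts alone, the medians were 7.28 and 7.91 TPM for the type I-leaning and 72.6 and 71.0 TPM for the type II-leaning group.

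The 6 sensing genes had a median of 20.5 ± 1.13 TPM (SD, n = 2 technical libraries), and all 6 were detected. Ddx58, which encodes the RNA helicase RIG-I, was highest at 58.0 and 56.3 TPM. Zbp1, a sensor of left-handed nucleic acid that can start necroptosis, was at 54.0 and 57.9 TPM. These sensors changed order between the libraries. Ifih1, which encodes the long-RNA sensor MDA5, stood at 22.2 and 19.4 TPM. Trim25, a ubiquitin ligase that acts on RIG-I, was lowest at 7.12 and 7.00 TPM. Between these lay Dhx58 (LGP2, a regulator of the helicases) with a mean of 20.2 TPM and Eif2ak2 (PKR, the RNA-activated kinase that stops translation) with a mean of 17.6 TPM.

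The 14 other effectors and regulators had a median of 64.2 ± 1.70 TPM (SD, n = 2 technical libraries), and all 14 were detected. Ifi47, an immunity-related GTPase, was at 309.8 and 310.3 TPM, level with Igtp within the gap between Igtp's libraries. Ifi27, a small mitochondrial and nuclear envelope protein, followed at 289 and 270.5 TPM. Iigp1, a GTPase that disrupts parasite vacuoles, stood at 182 and 176 TPM. It was not named in either leaning family and was kept outside both. Rsad2, the antiviral enzyme viperin, was lowest at 2.20 and 3.39 TPM, followed by Ifi44 at 6.89 and 6.41 TPM.

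The remaining members of this group lay between a mean of 30.3 TPM for Parp14 and 113 TPM for Ifi35. They included Samd9l, a growth-restraining gene, at a mean of 111 TPM, and Rtp4, a chaperone of G protein-coupled receptors, at 71.8 TPM. Isg20, an RNA exonuclease, was at 67.3 TPM, and Usp18, which removes Isg15 from proteins and damps type I receptor signalling, at 61.1 TPM. The level of Usp18 was above that of Isg15 in both libraries. Parp9 was at 48.5 TPM, Bst2 (tetherin, which holds virions at the cell surface) at 47.8 TPM and the pro-apoptotic gene Xaf1 at 36.9 TPM. Over all 42 members the 5 highest, Igtp, Ifi47, Ifi27, Iigp1 and Gbp4, made up 43.0% and 42.3% of the members' TPM. The type II-leaning group took 42.7% in each library and the type I-leaning group 4.61% and 4.77%.

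Several members are near copies of other genes, which limits how reads could be assigned to them. For each member, all 50-base words of its M21 transcripts were compared with those of every other gene. At least 90% of the words were its own in 34 of the 42 members, and 10 members shared none. The lowest was Gbp6 with 29.4% of its own, since Gm43302, which overlaps it on the same strand, shared 65.0% of its words and Gbp10 46.0%. Oas1a followed with 42.4%, its other words being shared with Oas1g. Ifit3 had 48.8%, the rest being shared with Ifit3b. The levels of these 3 members are therefore uncertain.

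The near copies themselves were lower. Ifit3b was at 3.03 and 4.89 TPM, and Ifit3 held 80.6% and 79.8% of the estimated counts of the pair. Oas1g was at 0.51 and 0.53 TPM, which left Oas1a with 99.0% and 99.1% of the counts of that pair. Gbp10 stood at 39.3 and 31.8 TPM and Gm43302 at 6.30 and 7.15 TPM. Igtp (chr11:58199556-58207591, mm10) overlaps Irgm2 (chr11:58199618-58222782, mm10) on the same strand and shared 11.8% of its words with it. Gbp4, Gbp8 and Gbp9 also overlap each other on chromosome 5. In all, 18 members overlapped another annotated gene, 10 of them on the opposite strand. With only the members that had at least 90% of their words to themselves, the log2 ratio of type II-leaning to type I-leaning medians was 3.36.

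The transcript table divides each gene's TPM among its annotated transcripts, by estimation. By this share the same transcript led in both libraries for 33 of the 42 members, and for 23 of them its share was 50% or more each time. Isg15, Ifit1, Ifit3 and Oas1a have a single annotated transcript. Igtp-201 held 90.6% and 86.6% of Igtp, and Gbp7-202 56.0% and 52.6% of Gbp7. By estimated counts the longer Gbp7-201 led Gbp7 instead, with 5063 and 4588 counts against 2836 and 2240 for Gbp7-202. Ifi47-201 held 72.8% and 74.1%, Ifi27-205 37.5% and 39.4%, and Iigp1-202 37.3% and 37.5% of their genes. Among the sensing genes Ddx58-201 held 39.7% and 44.2%, Zbp1-202 88.3% and 81.1%, and Ifih1-202 46.9% and 54.5%. Of these, the leading transcript of Ifi47, Ifi27 and Iigp1 held much the same share in both libraries, and that of Zbp1 and Ifih1 moved more.

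For 7 members the leading transcript was not typed as protein coding. Gbp4-202, typed as a target of nonsense-mediated decay, held 56.9% and 57.6% of Gbp4. The protein-coding transcripts of Gbp4 came to 71.2 and 71.0 TPM, under the levels of those of Gbp7 at 166 and 158 TPM, so the order of these genes depended on which transcripts were counted. Mx1-205 (50.1% and 48.8%) and Oasl2-205 (51.5% and 49.3%) had the same type. Parp14-202, a retained-intron transcript of 580 nt, held 48.0% and 51.7% of the TPM of Parp14. By estimated counts the protein-coding Parp14-201, of 7417 nt, led instead. It had 1228 and 1271 counts, against 85.0 and 102 for Parp14-202. The others were Gbp5-204, Oas2-204 and Mx2-202.

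Ranked by share of TPM, leading transcripts differed between the libraries for 9 members. By estimated counts, Mx2-202, Irgm1-201, Dhx58-201, Eif2ak2-201 and Parp14-201 led their genes in both libraries. Oasl1-201 held 77.9% of Oasl1 in technical replicate 1 and 0% in technical replicate 2, while Oasl1-202 held 0% and 89.3%. Mx2-202 held 28.0% and 92.7% of Mx2. The estimated counts of Mx2 were nearly equal at 58.9 and 59.5, while the mean transcript length assigned to it was 1193 and 2291 nt, and TPM is counts divided by that length. Irgm2-202 held 34.1% and 64.2% of Irgm2, and Irgm2-203 50.8% and 25.9%. Oas2-201 held 59.7% and 0% of Oas2. Gbp5-201 held 37.8% and 14.9% of Gbp5, against 31.9% and 47.6% for Gbp5-204. Irgm1-201 (61.8% and 49.3%), Dhx58-204 (48.4% and 35.8%), Eif2ak2-201 (42.9% and 33.0%) and Parp14-201 (49.99% and 46.6%) led in technical replicate 1 and not in technical replicate 2. Oasl1, Mx2 and Oas2, with the widest gaps, were among the members with the fewest counts.

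**Figure D2:**
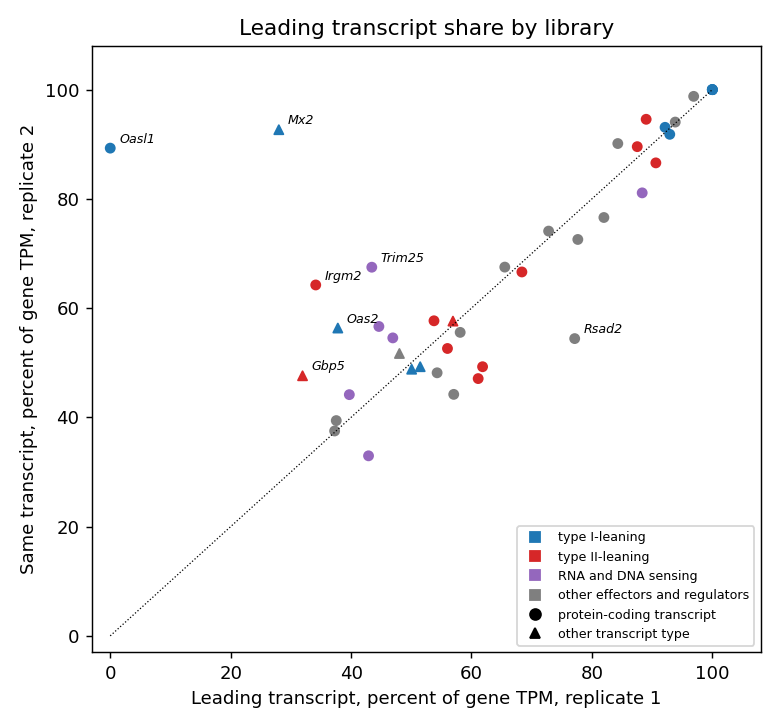
Percent of a member's TPM held by its leading transcript (by the mean of the libraries) in technical replicate 1 (x axis) and technical replicate 2 (y axis), with colours for role, triangles for transcripts not typed as protein coding and a dotted line of equality. Most members lie near the line, and the named ones differ by more than 15 percentage points, with Oasl1 and Mx2 farthest from it.

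Between the technical libraries, estimated counts were compared gene by gene with an exact binomial test, two-sided, over all 17334 genes whose counts summed to 10 or more, with Benjamini-Hochberg adjustment at 0.05. The test compares these 2 libraries and no conditions, and it takes read sampling as the only source of difference. It called 8 of the 42 members (19.0%), against 19.2% of all genes tested. The members' share was thus near that of genes in general. Of the 8, Ifit3, Mx1, Gbp2, Zbp1 and Parp14 were higher in technical replicate 2, and Ifit2, Igtp and Irgm2 were lower. The direction of Igtp was not the same in the authors' smaller gene table, where its log2 ratio was 0.04.

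None of the 8 reached a 2-fold difference. Mx1 differed most, with 90.2 and 133 estimated counts, a log2 ratio of 0.74 and an adjusted p of 0.00238 by the exact binomial test. Ifit3 followed with 305 and 414 counts, a log2 ratio of 0.62 and an adjusted exact p of 1.12e-06. Summed with its near copy Ifit3b it had 378 and 519 counts and a log2 ratio of 0.63, so the difference was as large when the division of reads between the pair was set aside. The other 6 had log2 ratios between -0.23 for Ifit2 and 0.25 for Zbp1. Ifit2 and Ifit3, neighbours on chromosome 19, were called in opposite directions. With a common dispersion fitted by edgeR to these libraries, 0 members were called, 2 (Ifit3 and Mx1) had an unadjusted p under 0.05, and the lowest adjusted p was 0.23. The coefficient of variation of TPM over the libraries had a median of 4.99% over the members and passed 10% in 9.

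**Figure D3:**
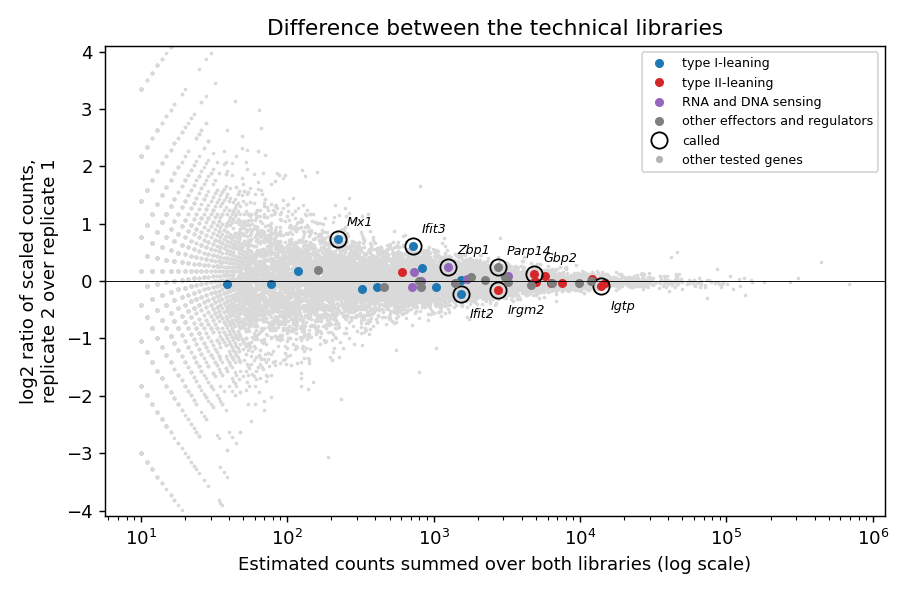
Log2 ratio of scaled estimated counts, technical replicate 2 over technical replicate 1, against the summed counts (log axis) for all tested genes (grey; genes beyond the axis or with 0 counts in a library are not drawn) and the 42 members coloured by role. The 8 circled members, called by the exact binomial test, lie within the grey cloud, with Mx1 and Ifit3 highest at 0.74 and 0.62.

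The members were also counted by the authors in a smaller gene table, from genome alignments with GENCODE M4 genes. There 40 of the 42 members had a row, Gbp5 and Gbp6 having none matched. That table held fewer counts for most genes: a median of 43.5% and 44.2% of the larger table's counts over protein-coding genes at 10 to 100 TPM, and 28.6% and 30.4% at 100 to 1000 TPM. The type I-leaning members kept a median of 44.7% and 51.7% of their counts and the type II-leaning members 27.2% and 29.4%. Ifit3 kept the least, 20.7% and 20.8%. Mx2 kept 81.6% in technical replicate 1, the most in that library, and 70.6% in technical replicate 2. Per length and rescaled, the medians of the groups in the smaller table were 25.3 TPM for the type I-leaning and 272 TPM for the type II-leaning members, with a log2 ratio of 3.43. In this table's counts the exact binomial test called 1 of the 40 members, against 6.59% of the 11019 genes tested. It was Parp14, with a log2 ratio of 0.25 and an adjusted p of 0.0452. The other 7 members called in the larger table were not called here. Ifit3 and Mx1 had log2 ratios of 0.58 and 0.49, with adjusted p of 0.137 and 0.455 by the exact binomial test. Igtp, lower in technical replicate 2 by the larger table (log2 ratio -0.09), had a log2 ratio of 0.04 here, so its direction turned.

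**Figure D4:**
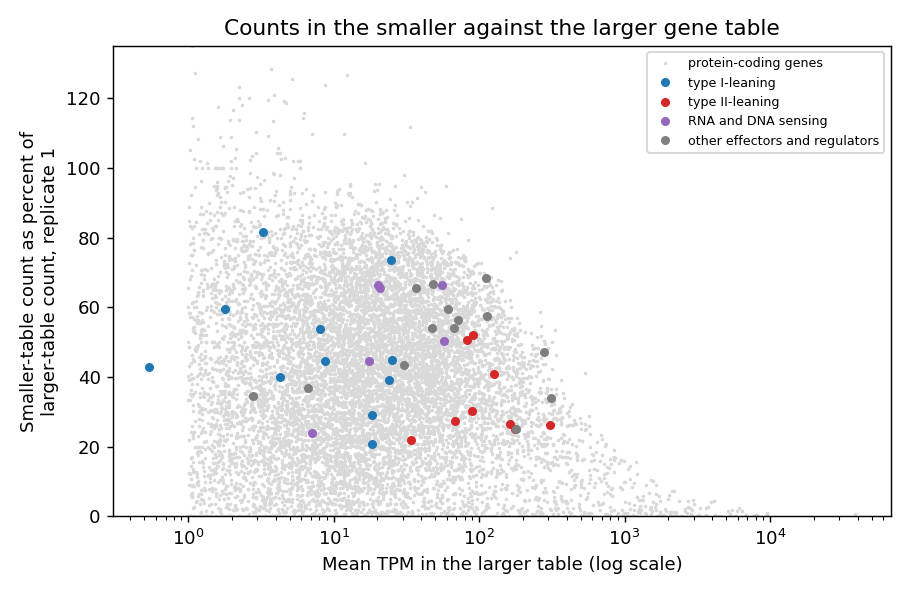
Count in the smaller gene table as a percent of that in the larger table, technical replicate 1, against mean TPM (log axis) for protein-coding genes (grey; genes beyond the axis are not drawn) and the 40 members present in both tables. The type II-leaning members lie between 22.0% and 51.9%, and the type I-leaning members between 20.7% and 81.6%.

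The pathway around the members was read from lists of ligands, signalling genes and relatives. Of 21 interferon ligand genes, 1 was detected: Ifng, the gene of interferon gamma, at 10.8 and 7.88 TPM. Ifnz was at 0 and 1.03 TPM and Ifna4 at 0.47 and 0 TPM, and 14 ligand genes, Ifnb1 among them, had no read in either library. With no read, the limit that a count of 0 allows was 0.195 and 0.221 CPM, counts scaled to the library total. Receptors and signalling genes were detected in 23 of 24 matched, with a median of 70.2 ± 3.04 TPM (SD, n = 2 technical libraries). Tmem173, which encodes the DNA-sensing adaptor STING, was at 312 and 277 TPM, and Jak1, the kinase used by both receptors, at 276 and 299 TPM. Socs1, a feedback inhibitor, was at 3.49 and 3.54 TPM. Ifnlr1, the receptor of the lambda interferons, had no read.

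Receptors for both kinds of interferon were present. Ifngr1 and Ifngr2, the interferon gamma receptor chains, stood at 223 and 23.0 TPM in technical replicate 1 and at 217 and 21.9 TPM in technical replicate 2. Ifnar1 and Ifnar2, the type I receptor chains, stood at 46.6 and 34.7 TPM in technical replicate 1 and at 49.6 and 45.2 TPM in technical replicate 2. Stat2 and Irf9, factors of type I signalling, were at 39.1 and 105 TPM in technical replicate 1 and at 36.4 and 99.8 TPM in technical replicate 2. Irf1 was at 217 and 219 TPM. The receptor chains and these 3 factors were named after their values were seen, because the background on the pathway speaks of them. By the exact binomial test 5 of the 23 signalling genes tested were called higher in technical replicate 2 and 1 lower, together 26.1% against 19.2% of all genes tested.

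Family relatives of the members were detected in 11 of 18 matched. Ifi27l2a, a relative of Ifi27, was at 715 and 728 TPM, above Ifi27 itself. The T cell-specific GTPases Tgtp2 and Tgtp1, relatives of Iigp1 and Ifi47, were at 404 and 395 TPM and at 304 and 283 TPM. Oas1d and Oas1e, relatives of Oas1a, had no read. Relatives did not all share the level of their family's members. Ifit1bl1, a relative of Ifit1, was at 77.5 and 73.1 TPM, above every type I-leaning member in both libraries. Gbp2b was at 62.6 and 50.6 TPM. Gbp11, typed as a polymorphic pseudogene, was at 1.38 and 3.06 TPM, below every type II-leaning member in both libraries. Of 32 other interferon-stimulated genes matched, 29 were detected, with a median of 43.3 ± 0.544 TPM (SD, n = 2 technical libraries) beside the members' 42.3. By the mean of the libraries the highest were Ms4a4b at 2159 and 1913 TPM, Ly6e at 1788 and 1724 TPM and Sp100 at 708 and 675 TPM. Cxcl9, a chemokine known for its response to interferon gamma, was at 0 and 0.03 TPM, and Ifitm1 at 0.40 and 0.18 TPM.

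Markers of T cells and of regulatory T cells were present, 11 of 11, with a median of 456 ± 25.6 TPM. The highest were genes of T cells in general. These were Trbc2 at 3803 and 3725 TPM, Trac at 3032 and 2964 TPM and Cd3g at 1144 and 1164 TPM. Among regulatory T cell markers, Izumo1r was at 1061 and 1040 TPM, Tnfrsf18 at 475 and 438 TPM and Ikzf2 at 426 and 425 TPM. The lowest by the mean of the libraries were Foxp3 at 22.1 and 17.9 TPM and Ctla4 at 181 and 161 TPM. In bulk RNA, fewer cells of a type and less RNA per cell cannot be told apart. The 10 macrophage and monocyte markers summed to 6.26 and 4.78 TPM with 1 detected, and Adgre1, Cd14 and Fcgr1 were at 0 in both libraries. The 10 dendritic cell markers summed to 9.21 and 9.17 TPM with 3 detected, and Itgax and Cd209a were at 0. The 8 neutrophil markers summed to 0.55 and 0.88 TPM and the 7 NK cell markers to 1.49 and 2.56 TPM, with 0 detected in either list and Camp, Mpo, Ncr1, Klre1 and Klra8 at 0. Markers of B cells summed to 49.96 and 38.8 TPM with 2 of 8 detected, Cd79b at 36.6 and 29.7 TPM and Cd22 at 9.18 and 6.35 TPM, while none was at 0 in both libraries. The part of B cells in the members' levels was not tested.

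**Figure D5:**
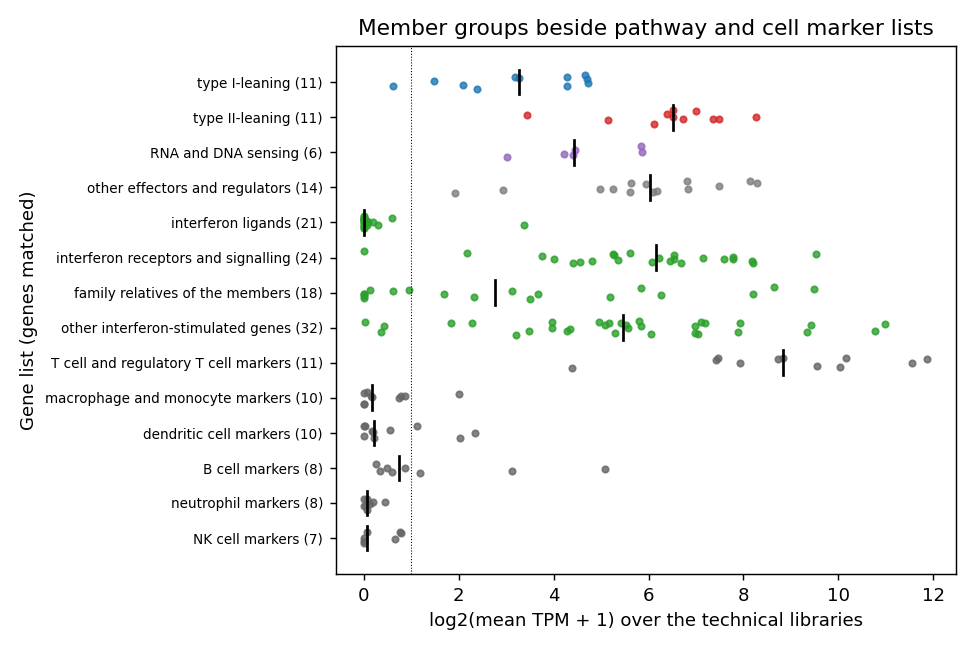
Mean level over the technical libraries as log2(TPM + 1) for each gene (points, spread vertically at random) of the member groups, the pathway lists and the cell marker lists, with the number of genes matched in brackets, a bar at each list's median and a dotted line at 1 TPM. The ligand list and the lists of markers of other cell types have medians under 1 TPM, while the signalling list has a median of 70.2 TPM. Some genes of the former lists lie above the dotted line, among them Cd79b at 33.1 TPM, Ifng at 9.36 TPM and Cd22 at 7.8 TPM.

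Technical replicate 1 held 15386113 gene counts in the larger table and technical replicate 2 held 13604480. The members took 76060.0 and 67265 of these, 0.494% in each library. Estimated counts were whole numbers in both libraries, to within 0.005, for 17 of the members, so for the other 25 at least some reads were divided between genes by estimation.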

How the data were processed

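Polyadenylated RNA of 1 biological replicate was measured in 2 technical libraries. Estimated counts and TPM per gene and transcript, and each transcript's percent of its gene's TPM, were deposited by the authors, per the file headers, for mm10 with GENCODE M21. Whole-number counts per gene with GENCODE M4 were deposited by the authors in a smaller table made from genome alignments. Which aligner and quantifier were used, and with what strand setting, is not given in the sources used here. The smaller table held 3581589 and 3271045 counts. Entries that name no gene (0.17% and 0.16% of counts) were kept out.

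From these, TPM per library, mean and SD, group medians and transcript shares were computed (Python 3.11.15, pandas 2.3.3). Estimated counts were rounded for a two-sided exact binomial test (scipy 1.17.1) with TMM effective library sizes (edgeR 4.0.16, R 4.3.3). The test was also run on simulated counts with read sampling as their only noise. That is the test's own assumption, so the simulation cannot show how the test behaves on these libraries. Alternatives included DESeq2 1.42.0 size factors, a common dispersion and other thresholds. The technical libraries were counted apart because their counts differed by more than read sampling (index of dispersion 4.98). No label says that they came from separate cultures or animals. The binomial p-values set the difference between these libraries against read sampling alone, and they measure no spread between libraries, cultures or animals. Because the libraries differed by more than read sampling, these p-values are too small. Limits from a count of 0 use 3 counts and cover counting error only.

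The members and lists were chosen with earlier results of these data known. Named were all type I- and type II-leaning members, the 3 highest and the lowest of the other member groups, members called at over 2-fold, and the 3 highest and up to 2 lowest of other lists; further genes were added after their values were seen. Transcript shares were given for the 3 highest of each group, for leading transcripts not protein coding and for those that differed between libraries. Mb21d1, Samd9 and Mnda had no match by name, and the values of 1 signalling gene are not reported here. A comparison of member proteins was not run, and shared 50-base words took its place. Promoter windows are RefSeq's, and 29 of 31 member windows held bases of the start of a matching M21 transcript.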

Additional observations from a re-analysis of the deposited data

How the results depend on the processing

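Depth limits the members under about 5 TPM (Mx1, Mx2, Oas2, Oasl1 and Rsad2), which had the fewest estimated counts. Leaving out each technical library in turn kept 41 members detected, with the type I-leaning median from 8.62 to 9.05 TPM, the type II-leaning median from 88.8 to 94.4 TPM and the log2 ratio of medians from 3.30 to 3.45. Posterior mean TPM gave a type II-leaning median of 80.7 and a log2 ratio of 3.25, and it moved 30 of the 42 members' means by more than their technical SD (median ratio 0.891). Rescaled over protein-coding genes, the medians were 10.8 and 113 TPM, and from the smaller table's counts they were 25.3 and 272.5 TPM. The first divides by a smaller total, and the cause of the second, like that of the posterior mean values, was not tested. The log2 ratio was 3.22 as a difference of mean log2(TPM + 1), 2.75 with only detected members, and 3.81 with counts not divided by length, an alternative chosen after seeing the data, as was the restriction to members with words of their own. The type II-leaning group was higher under every alternative run. Between 32 and 42 members were detected at thresholds from 10 down to 0.1 TPM.

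With edgeR's common dispersion 0 members were called higher and 0 lower in technical replicate 2, with 149 and 163 genes in all, against 5, 3, 1632 and 1696 by the exact binomial test; this dispersion takes every difference between the libraries as noise. By the smaller table's counts, 1 member was called higher and 0 lower, with 355 and 371 genes in all; it holds fewer counts. Total counts, DESeq2 size factors and both count filters gave 5 and 3 members. The longer response element core was held by 10 members, being a stricter match, and the core was held by 14 before the start alone. No paired analysis was possible because there is 1 group.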
